A study of Mus musculus with 6 samples.

Results

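VEGF ligands and receptors of the mouse were followed in bulk RNA-seq of the newborn retina, as 7 genes of the 39179 in the count tables. They are the receptors Kdr (VEGFR2), Flt1 (VEGFR1) and Flt4 (VEGFR3) and the ligands Vegfa, Vegfb, Vegfc and Pgf. A further ligand, Vegfd, was not among the 7, had 1 to 10 reads per library and was not tested. The 7 genes were chosen by name and because of the values of Kdr and Flt1 in these same libraries, in the comparison of Lhx2 conditional knockouts (cKO) with controls. Their differences between genotypes are therefore given as descriptions, with standard errors and no p-value.

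The mutant mice carried Lhx2 lox/lox with Pdgfrα-Cre, which removes Lhx2, a LIM homeodomain transcription factor of retinal progenitors and glia, in cells that have expressed Cre from the Pdgfrα regulatory sequence. The controls carried the same Lhx2 lox/lox alleles without Cre. Both groups were of mixed, primarily CD-1 background and were killed at postnatal day 0.5. Each group held 3 retina libraries, named cKO 1, 2 and 3 and control 2, 3 and 4 after their titles.

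In the vessel wall, Vegfa signals through the tyrosine kinase receptor Kdr to make endothelial cells divide, migrate and sprout, while Flt1 binds Vegfa, Vegfb and Pgf tightly with weak kinase activity and acts largely as a decoy. Flt4 is the receptor for Vegfc in lymphatic vessels and in sprouting blood vessels. In the newborn mouse retina vessels begin to spread from the optic nerve head over a network of astrocytes that release Vegfa, and neural progenitors and young neurons of this tissue are also known to carry Kdr.

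The promoters of the 3 receptors are shown because the receptors differed in direction between genotypes, so that their sequences can be read side by side. Each run holds 250 bases before to 50 bases after the RefSeq gene start on GRCm38.p6, read 5′ to 3′ on the strand of the gene. Capitals mark GGAA, the core of the sites bound by ETS factors, or its reverse complement TTCC. The Kdr promoter lies at chr5:75978406-75978705 on the minus strand, that of Flt1 at chr5:147725962-147726261 on the minus strand and that of Flt4 at chr11:49609429-49609728 on the plus strand.
Kdr: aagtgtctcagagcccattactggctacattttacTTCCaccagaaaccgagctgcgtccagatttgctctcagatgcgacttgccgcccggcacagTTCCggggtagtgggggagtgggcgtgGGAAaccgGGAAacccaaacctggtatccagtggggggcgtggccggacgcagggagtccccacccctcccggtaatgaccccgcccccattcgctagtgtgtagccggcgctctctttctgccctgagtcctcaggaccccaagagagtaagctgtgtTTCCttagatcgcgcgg
Flt1: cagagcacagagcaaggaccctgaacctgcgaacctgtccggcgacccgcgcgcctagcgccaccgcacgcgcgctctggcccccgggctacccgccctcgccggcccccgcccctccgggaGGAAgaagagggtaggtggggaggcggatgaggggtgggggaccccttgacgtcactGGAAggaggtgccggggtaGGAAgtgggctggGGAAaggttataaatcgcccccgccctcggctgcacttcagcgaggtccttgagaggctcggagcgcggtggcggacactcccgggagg
Flt4: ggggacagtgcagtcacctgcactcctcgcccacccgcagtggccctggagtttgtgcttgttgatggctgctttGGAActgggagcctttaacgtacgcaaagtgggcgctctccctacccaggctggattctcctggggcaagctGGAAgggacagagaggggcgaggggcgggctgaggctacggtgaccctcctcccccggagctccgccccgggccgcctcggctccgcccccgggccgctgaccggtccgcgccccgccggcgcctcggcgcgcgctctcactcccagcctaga

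The Kdr promoter held 5 matches to the ETS core on both strands together, 2 forward and 3 reverse. The Flt1 promoter held 4, all forward, and the Flt4 promoter held 2, both forward. At least 1 match lay in 95.98% of the 32851 promoters of the same length, with a median of 3, and 5 or more lay in 28.59% of them. TAATTA, a sequence bound by many homeodomain factors and equal to its own reverse complement, had no match in these windows for any of the 7 genes, against 5.291% of all promoters with a match. Matches are descriptions of the letters in these windows and not of binding.

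The libraries held between 31483170 and 66947478 reads on genes, so that Kdr had 12465 to 25888 reads per library while Flt4 had 12 to 144. The libraries fell into 2 sets that the labels do not name. Set A (cKO 1, cKO 2 and control 2) had 3.13 to 3.20% of all deposited counts in the row of reads ambiguous between genes. Set B (cKO 3, control 3 and control 4) had 2.63 to 2.69%. The first principal component of the log2 CPM (read counts scaled to library size, with TMM factors) carried 67.5% of the variance and separated the sets, not the genotypes. The fit of edgeR's quasi-likelihood test therefore had library set as a term beside genotype, and a gene is called where its Benjamini-Hochberg adjusted p over 16691 tested genes was under 0.05. In set B cKO 3 was the only cKO library, and in set A control 2 was the only control. With the set term, a fit without cKO 3 therefore drew the genotype difference from set A alone. A fit without control 2 drew it from set B alone. Reads of Y-linked genes marked control 2 and control 4 as male and the other 4 libraries as female, so that sex also ran with genotype in part. Crystallins and other lens genes stood at 863 to 2321 summed CPM in the cKO libraries, against 2.66 to 6.34 in the control libraries. Of the lens markers, 11 of the 11 tested were called higher, beside 6.36% of all tested genes. The part of sex and of the lens markers in the differences between genotypes was not tested.

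Lhx2 itself had 252, 287 and 224 CPM in cKO 1, 2 and 3, against 399, 266 and 258 CPM in control 2, 3 and 4. The groups overlapped, and the log2 fold change was -0.40 ± 0.10 (SE, adjusted p = 0.0338 in edgeR's quasi-likelihood test). The call was lost when control 2, control 3, cKO 2 or cKO 3 was left out, when sex was added to the model and without library set as a term (adjusted p = 0.817). The deposited counts are per gene, so reads from the floxed part of Lhx2 could not be counted apart. Pdgfra, the gene whose regulatory sequence drove Cre, averaged 24.7 ± 10.3 CPM in cKO and 30.6 ± 10.1 CPM in control retinas (SD, n = 3 each) and was not called (adjusted p = 0.968).

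Kdr was the most abundant of the 7 genes and was lower in the cKO retinas, whereas Flt1 and Flt4 were low in every library and higher in the cKO retinas in the fit. Of the ligands, Vegfb was slightly lower, and Vegfa, Vegfc and Pgf were not called. In counts, 2 of the 7 genes were called higher and 2 lower, beside 6.36% of all tested genes called higher and 5.63% called lower. Nothing is read from these shares, or from the calls of the 7 genes in this and other fits, since the same contrast chose the genes. None of the 7 was called without library set as a term, with sex added to the model or when cKO 3 was left out. Flt4 alone was called when control 3 was left out, and Flt1 and Flt4 alone when control 2 was left out. Kdr was called with them, and Vegfb was not, when control 4 or cKO 2 was left out. The same held with a replicate block in place of library set, with no scaling beyond totals and in limma-voom. Over all genes 1062 were called higher and 939 lower, and DESeq2 with its own scaling called 1204 higher and 1672 lower. Without regard to the fit, 1 of the 7, Flt4, had all cKO libraries above all control libraries, beside 8.38% of tested genes, and 1, Kdr, had all cKO libraries below all control libraries, beside 5.54%. All 7 genes passed the filter on low counts. In bulk tissue, fewer cells of a type and less RNA per cell cannot be told apart.

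**Figure D1:**
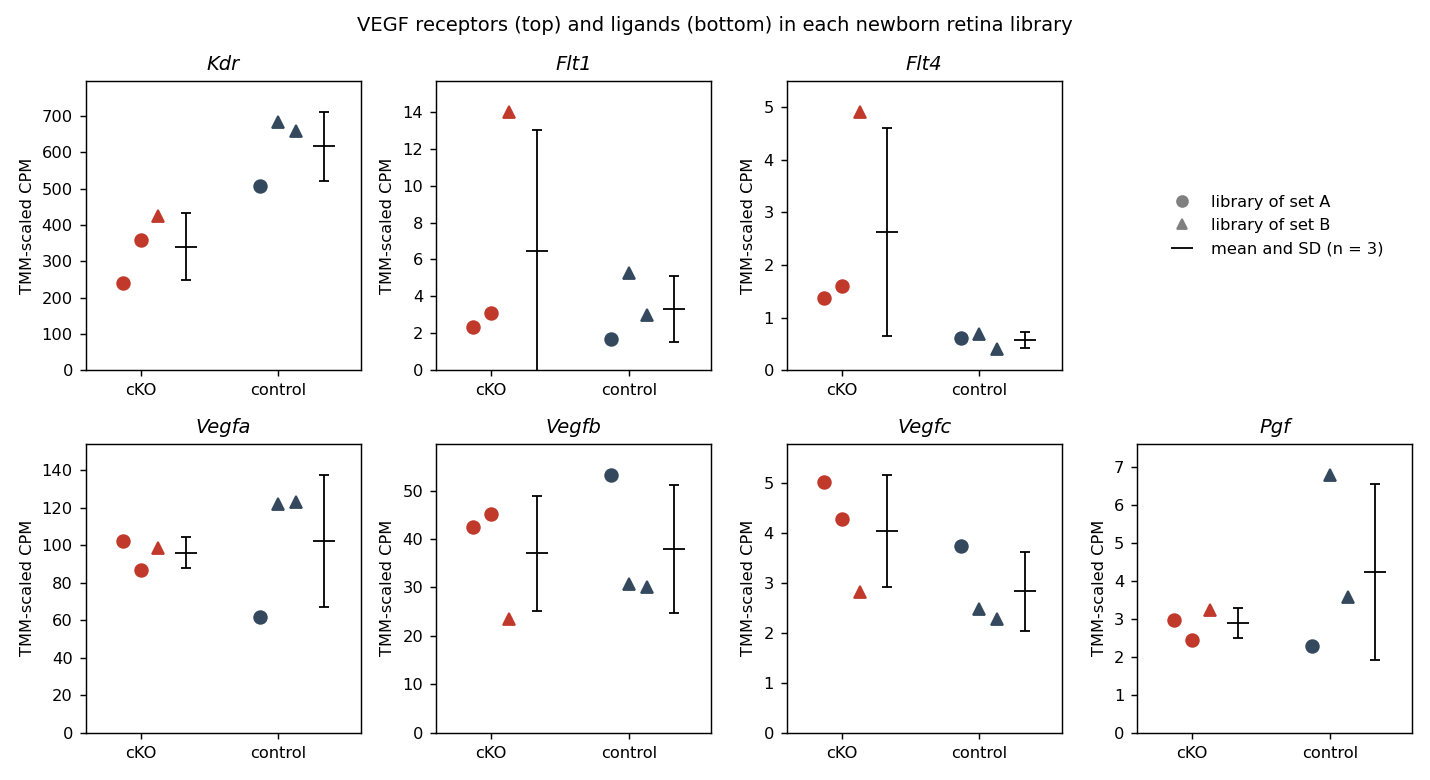
Each panel plots the TMM-scaled CPM of 1 gene in the 6 libraries, the 3 cKO libraries on the left and the 3 control libraries on the right, with circles for set A, triangles for set B and a bar for the mean and SD (cut at 0 for Flt1 in cKO). Kdr lies at 240 to 424 CPM in all cKO libraries, below the 509 to 683 CPM of the controls, and the Flt1 value of 14.0 CPM in cKO 3 stands above the other 5 libraries.

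Kdr (ENSMUSG00000062960) lies on chromosome 5 at 75932827 to 75978458, minus strand, on GRCm38. It had 240, 358 and 424 CPM in cKO 1, 2 and 3, against 509, 683 and 659 CPM in control 2, 3 and 4. Every cKO library was below every control library, and within both groups the set A libraries were the lower ones. The mean was 341 ± 93.4 CPM in cKO and 617 ± 94.4 CPM in control retinas (SD, n = 3 each). The log2 fold change was -0.71 ± 0.14 (SE), or 0.610 of the control level. The difference of log2 CPM was -0.80 within set A and -0.66 within set B, and between the set B female libraries the values were 424 CPM in cKO 3 and 683 CPM in control 3. Without the set term the log2 fold change was -0.86 ± 0.27.

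Flt1 (ENSMUSG00000029648) lies on the same chromosome at 147561604 to 147726011, minus strand. It had 2.36, 3.10 and 14.0 CPM in cKO 1, 2 and 3, against 1.68, 5.26 and 3.02 CPM in control 2, 3 and 4. The groups overlapped: cKO 3 was high, and cKO 1 and cKO 2 were below control 3. The mean was 6.48 ± 6.51 CPM in cKO and 3.32 ± 1.81 CPM in control retinas (SD, n = 3 each), a difference smaller than the spread between the cKO libraries. With library set as a term the log2 fold change was 1.27 ± 0.30 (SE), and without that term it was 0.96 ± 0.78. Within set A the difference of log2 CPM was 0.67 and within set B 1.80. Leaving out cKO 3 gave 0.73, and leaving out control 2 gave 1.75. These fits used set A alone and set B alone for the genotype difference, so they largely repeat the values within the sets.

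Flt4 (ENSMUSG00000020357), on chromosome 11 at 49609263 to 49652739, plus strand, was the least abundant receptor. It had 1.37, 1.60 and 4.90 CPM in cKO 1, 2 and 3, from 77, 116 and 144 reads, against 0.612, 0.688 and 0.398 CPM in control 2, 3 and 4, from 28, 23 and 12 reads. Every cKO library was above every control library, and cKO 3 was the highest. The log2 fold change was 2.26 ± 0.43 (SE), and the difference of log2 CPM was 1.22 in set A and 3.12 in set B. The fitted log2 fold change was 1.31 when cKO 3 was left out and 3.16 when control 2 was left out. As for Flt1, these largely repeat the values within set A and within set B.

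The receptors were thus unequal in level and in direction. Per kilobase of exon, Kdr stood at 37.7 CPM in cKO and 68.3 CPM in control retinas. The per-kilobase levels of Flt1 were 0.480 CPM in cKO and 0.246 CPM in control, and those of Flt4 were 0.319 CPM in cKO and 0.0687 CPM in control. By this measure Kdr ranked 1257th in cKO and 570th in control of 16509 genes, while Flt1 ranked 13930th in cKO and 14740th in control. Kdr made up 95.7 to 98.7% of the reads on the 3 receptors in cKO libraries and 99.1 to 99.6% in control libraries.

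The ratio of Kdr to Flt1 CPM was 102, 116 and 30.3 in cKO 1, 2 and 3, against 302, 130 and 218 in control 2, 3 and 4. Every cKO ratio was below every control ratio, and cKO 2 and control 3 were close to each other. In log2 units the fitted change of Kdr minus that of Flt1 was -1.98, and the difference was -1.48 in set A and -2.47 in set B. Leaving out each library in turn moved the fitted value between -2.41 and -1.47.

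**Figure D2:**
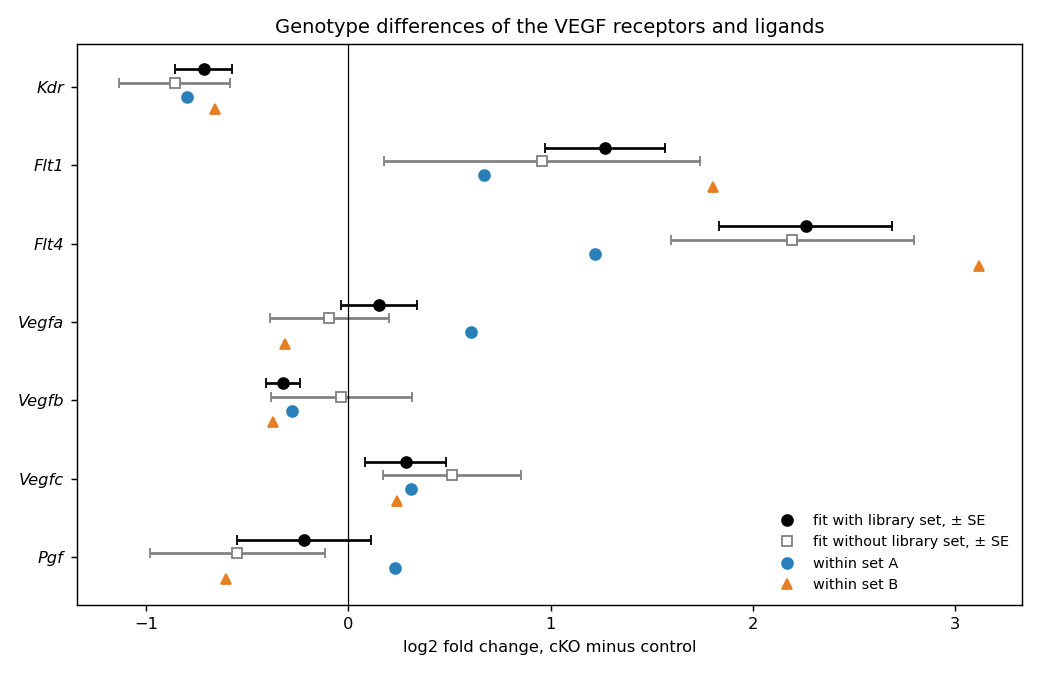
Log2 fold changes of the 7 genes, cKO minus control, with black points and bars for the edgeR fit with library set and its SE, gray squares for the fit without it, and coloured marks for the difference of log2 CPM within set A and within set B; the horizontal axis is log2 and 0 is no difference. Kdr is below 0 and Flt1 and Flt4 are above 0 in both sets, whereas Vegfa is at 0.61 in set A and -0.31 in set B.

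Vegfa (chromosome 17, 46016993 to 46032369, minus strand), the main ligand of Kdr, had 102, 86.9 and 98.8 CPM in cKO 1, 2 and 3, against 61.9, 122 and 123 CPM in control 2, 3 and 4. The cKO libraries lay close together, inside the range of the controls, and control 2 was the lowest of all. The log2 fold change was 0.15 ± 0.19 (SE). The difference had opposite directions in the sets, 0.61 in set A and -0.31 in set B. The interaction of genotype and set had an unadjusted p of 0.00121 and an adjusted p of 0.412 in edgeR's quasi-likelihood test, so that this contrast between the sets did not pass. Without control 2 the log2 fold change was -0.31 and without cKO 3 it was 0.64, which largely repeats the values within set B and within set A.

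Vegfb (chromosome 19, 6982473 to 6987651, minus strand), a ligand of Flt1 and not of Kdr, had 42.5, 45.2 and 23.5 CPM in cKO 1, 2 and 3, against 53.3, 30.6 and 30.1 CPM in control 2, 3 and 4. The groups overlapped, and the set A libraries were higher than the set B libraries in both genotypes, while within each set every cKO library was below every control library. The log2 fold change was -0.32 ± 0.09 (SE) with library set as a term and -0.03 ± 0.35 without it.

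Vegfc (chromosome 8, 54077606 to 54187096, plus strand), a ligand of Flt4, had 5.03, 4.28 and 2.83 CPM in cKO 1, 2 and 3, against 3.74, 2.48 and 2.29 CPM in control 2, 3 and 4. Within each set the cKO libraries were above the controls, but cKO 3 was below control 2, so the groups overlapped, and the log2 fold change was 0.28 ± 0.20 (SE).

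Pgf (chromosome 12, 85166635 to 85177790, minus strand), which binds Flt1 and not Kdr, had 2.98, 2.45 and 3.23 CPM in cKO 1, 2 and 3, against 2.29, 6.79 and 3.58 CPM in control 2, 3 and 4. Control 3 was high and the groups overlapped, and the log2 fold change was -0.22 ± 0.33 (SE). Leaving out control 3 gave 0.07 and leaving out cKO 3 gave 0.27, while adding sex to the model gave -0.95.

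Per kilobase of exon Vegfa and Vegfb were alike in level, at 22.4 and 23.1 CPM in cKO retinas and 23.9 and 23.7 CPM in control retinas. Vegfc, at 1.65 CPM in cKO and 1.16 CPM in control, and Pgf, at 0.995 CPM in cKO and 1.45 CPM in control, were far lower. Within controls the order of levels per kilobase was Kdr, Vegfa and Vegfb, Pgf, Vegfc, Flt1 and Flt4. Vegfa with Vegfb and Pgf with Vegfc were neighbours in this order whose SDs overlapped. In cKO retinas the order was Kdr, Vegfb, Vegfa, Vegfc, Pgf, Flt1 and Flt4. The SDs of Kdr and Vegfb, of Vegfb and Vegfa, of Pgf and Flt1 and of Flt1 and Flt4 overlapped there, and in cKO 1 Kdr and Vegfb stood at 26.6 and 26.5 CPM per kilobase. Dividing by the length of the longest transcript in place of all exons gave control levels of 104 CPM per kilobase for Kdr and 0.482 for Flt1, in the same order.

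The genes also varied between the library sets. The choice of genes had not used this contrast, but the sets were drawn from the ambiguous reads of these same libraries and not from a label. In edgeR's quasi-likelihood test of set A minus set B, 5 of the 7 genes were called, beside 63.7% of all tested genes. Vegfb was 0.86 higher on the log2 scale in set A (adjusted p = 3e-05) and Vegfc 0.68 higher (adjusted p = 0.0146). Flt1 fell by 1.88 in set A relative to set B (adjusted p = 0.000525), Vegfa by 0.52 (adjusted p = 0.0356) and Kdr by 0.45 (adjusted p = 0.0197). Pgf, at -0.72 (adjusted p = 0.0864), and Flt4, at -0.98 (adjusted p = 0.0665), did not pass. For Flt1 the set difference of 1.88 in size stood beside a genotype difference of 1.27. No member was called for the interaction of genotype and set, with adjusted p from 0.412 to 0.997, beside 0.024% of all tested genes called.

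Endothelial markers were higher in the cKO retinas, where Kdr was lower. Of 20 markers of endothelial cells, 19 were tested, and 15 were called higher and 0 lower in the cKO retinas. Over all tested genes 6.36% were called higher and 5.63% lower. Their summed level was 59.8 to 104 CPM in cKO libraries, against 25.6 to 39.2 CPM in control libraries, and no marker was at 0 in every library. The median log2 fold change was 2.02, beside -0.00 over all tested genes. Erg, an ETS factor of endothelial cells, rose by 3.81 ± 0.42 (SE, adjusted p = 0.00123 in edgeR's quasi-likelihood test). Cdh5, the cadherin of endothelial junctions, rose by 2.13 ± 0.27 (adjusted p = 0.00253), Robo4, an endothelial guidance receptor, by 2.92 ± 0.42 (adjusted p = 0.0041) and the sialomucin Cd34 by 1.63 ± 0.19 (adjusted p = 0.00155). Cldn5, a tight junction protein, was at -0.13 and Egfl7, a secreted endothelial protein, at 0.55, and neither passed. The endothelial count changed most without cKO 3, the only cKO library of set B, where set A alone gave the genotype difference. There 1 marker was called higher, Cd34, and without each other library 13 to 16 were. With sex as a further term 6 were called higher, and without the set term 0 were.

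The ratio of Kdr to Cdh5 CPM was 57.0, 52.1 and 20.1 in cKO 1, 2 and 3, against 280, 222 and 166 in control 2, 3 and 4. Every cKO ratio was below every control ratio. This order follows from the values already given, so nothing further is read from it. Each cKO library was below each control library for Kdr and above each control library for Cdh5. The ratio of Flt1 to Cdh5 was 0.559, 0.451 and 0.664 in the cKO libraries, against 0.928, 1.71 and 0.758 in the controls, so that these ranges did not overlap either. The ratio of Flt1 to Pecam1, another endothelial gene chosen after its values were seen, did overlap, at 0.698, 0.665 and 1.47 in the cKO libraries, against 0.963, 2.75 and 1.30 in the controls. The ratio of Flt4 to Cdh5 overlapped too, at 0.326, 0.233 and 0.233 in the cKO libraries, against 0.337, 0.223 and 0.100 in the controls. Per kilobase of exon, Cdh5 stood at 2.55 CPM in cKO and 0.704 CPM in control retinas, below Kdr and above Flt1 in both groups.

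Markers of retinal progenitors were mostly lower, as was Kdr. Of 14 tested, 9 were called lower and 1 higher, beside 5.63% of all tested genes called lower and 6.36% called higher. The list holds Lhx2, the gene targeted in the mutants, among those called lower. Pax6 (-0.025), Six3 (-0.06), Nes (0.05) and Mki67 (-0.55) were not called. The summed level was 4687 to 7161 CPM in cKO libraries, against 8379 to 9570 CPM in control libraries, and no marker was at 0. Dapl1 fell by 1.47 ± 0.10 (SE, adjusted p = 8.3e-05 in edgeR's quasi-likelihood test), the growth factor Fgf15 by 1.52 ± 0.13 (adjusted p = 0.000382) and the Notch effector Hes1 by 0.82 ± 0.10 (adjusted p = 0.00185). Sfrp2, a secreted modulator of Wnt signalling, rose by 2.71 ± 0.22 (adjusted p = 0.00024). Without each library in turn 6 to 10 progenitor markers were called lower, and 3 were with sex as a further term. The part of the endothelial and progenitor markers in the values of Kdr, Flt1 and Flt4 was not tested.

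**Figure D3:**
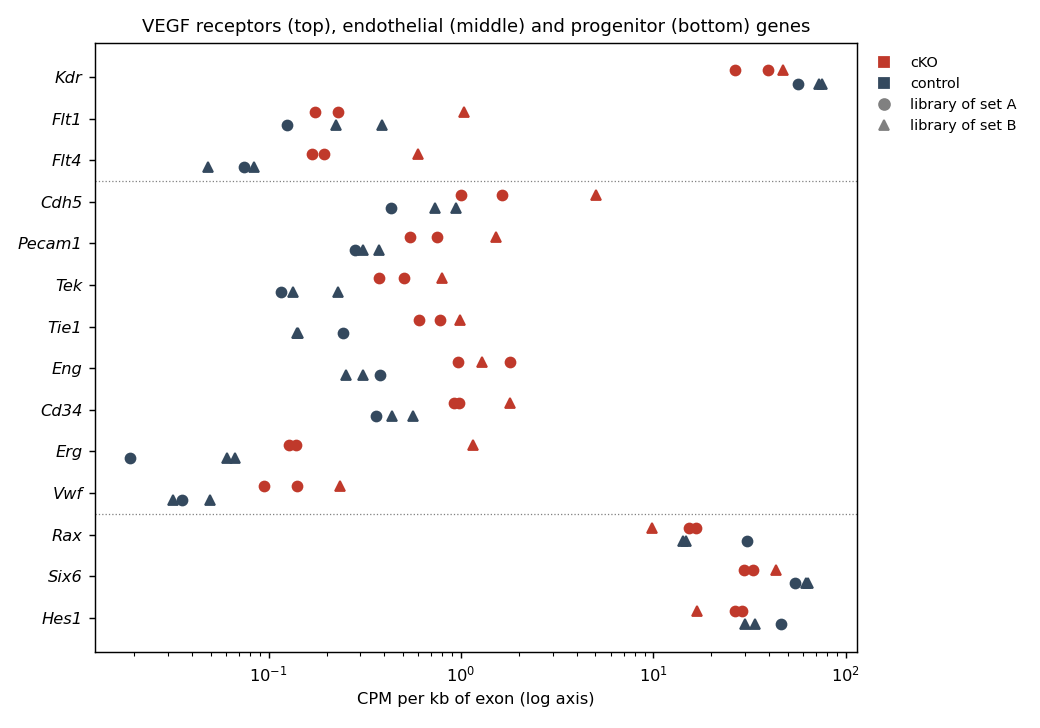
CPM per kilobase of exon (log axis) of the receptors, 8 endothelial and 3 progenitor markers, most of them chosen for the plot after their values were seen; each point is 1 library, the cKO row above the control row, with circles for set A and triangles for set B. Cdh5 averages 2.55 in cKO and 0.704 in control retinas, while Kdr averages 37.7 in cKO and 68.3 in control retinas.

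Other cells of the vessel wall and its surroundings were read from the same fit, beside 6.36% of all tested genes called higher and 5.63% called lower. Of 10 mural cell markers, 5 were called higher and 0 lower, with 72.3 to 158 summed CPM in cKO and 44.7 to 54.3 in control libraries. Rgs5, a pericyte signalling regulator, rose by 2.24 ± 0.16 (SE, adjusted p = 0.000111 in edgeR's quasi-likelihood test), and smooth muscle actin, Acta2, by 3.07 ± 0.51 (adjusted p = 0.00712). Without cKO 3, 1 mural marker was called higher, and without control 3 or control 4, 2 were; Rgs5 was called without each library and Acta2 was lost without cKO 3. Of 12 macrophage and microglia markers, 10 were called higher, with 86.3 to 118 summed CPM in cKO and 30.2 to 52.9 in control libraries. The complement subunit C1qb rose by 1.57 ± 0.16 (adjusted p = 0.000956) and the chemokine receptor Cx3cr1 by 1.28 ± 0.15 (adjusted p = 0.00205). The macrophage count was 3 when cKO 3 was left out and 1 when sex was added to the model. Lymphatic markers, the usual site of Flt4, gave 2 of 5 called higher, Lyve1 at 2.58 ± 0.45 (adjusted p = 0.00907) and Mmrn1 at 1.41 ± 0.28 (adjusted p = 0.0147). Their summed level, 403 to 518 CPM in cKO and 412 to 458 CPM in control libraries, includes Prox1 and Reln, which retinal neurons also express, and Ccl21a, the lymphatic chemokine, was at 0 in every library. Lyve1 and Mmrn1, which are not limited to lymphatic vessels, were both lost without cKO 3. Of 9 retinal astrocyte markers, the Vegfa source named above, 1 was called, beside 12% of all tested genes called in either direction, so nothing is read from this count. It was Aldh1l1 at 1.06 ± 0.25 (adjusted p = 0.0261), and this call was lost without control 3, control 4, cKO 2 or cKO 3. The part of these cells in the values of the receptors was not tested.

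The pathway around the 7 genes was described with 6 lists holding 104 genes, of which 100 were tested. Of these, 14 were called higher and 5 lower, beside 6.36% higher and 5.63% lower over all tested genes, with a median log2 fold change of 0.08. Among 14 tested co-receptors and extracellular modulators, 3 were higher and 2 lower. Nrp2, the neuropilin that binds Vegfc and class 3 semaphorins, rose by 0.84 ± 0.12 (SE, adjusted p = 0.00427 in edgeR's quasi-likelihood test). Ptprb, the endothelial phosphatase that dampens Tek and Kdr, rose by 2.10 ± 0.25 (adjusted p = 0.00204), and the repulsive ligand Sema3a by 0.92 ± 0.10 (adjusted p = 0.00129). Sema3f, a ligand of Nrp2, fell by 0.64 ± 0.12 (adjusted p = 0.0117), and Adamts1, a protease that binds Vegfa, by 0.60 ± 0.16 (adjusted p = 0.0431). Nrp1, the neuropilin partner of Kdr, was at 0.36 ± 0.11 (adjusted p = 0.0705) and did not pass.

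Signal transduction, oxygen sensing and hypoxia targets were covered by 3 lists, beside a share of 12% of all tested genes called in either direction. Of 27 signal transduction genes 1 was called, the adaptor Shb, which binds the phosphorylated tail of Kdr, at 0.62 ± 0.12 (SE, adjusted p = 0.0117 in edgeR's quasi-likelihood test). Of 16 genes of oxygen sensing and of the regulation of Vegfa 1 was called, Nr2e1, an orphan nuclear receptor of retinal progenitors and immature astrocytes, which fell by 0.74 ± 0.16 (adjusted p = 0.0203). Hif1a, the oxygen-regulated factor that induces Vegfa, was at -0.16 ± 0.11 (adjusted p = 0.392). Of 21 hypoxia target genes 1 was called, the glycolytic activator Pfkfb3, at 0.74 ± 0.10 (adjusted p = 0.00312). The medians of these 3 lists were 0.01, -0.00 and 0.07 on the log2 scale.

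Genes that VEGF signalling controls in sprouting endothelium gave 3 higher and 1 lower of 10 tested, with a median of 0.83. Over all tested genes 6.36% were called higher and 5.63% lower. Unc5b, a netrin receptor of tip cells, rose by 1.55 ± 0.18 (SE, adjusted p = 0.00163 in edgeR's quasi-likelihood test), and Plvap, the diaphragm protein of fenestrated vessels, by 1.27 ± 0.33 (adjusted p = 0.0381). Esm1, a proteoglycan secreted by tip cells, was called higher from few reads, with 21, 29 and 45 reads in cKO 1, 2 and 3, against 2, 1 and 1 reads in control 2, 3 and 4. Dll4, the Notch ligand of tip cells that newly formed retinal neurons also express, fell by 0.77 ± 0.11 (adjusted p = 0.00361). Of 15 other angiogenic ligands and receptors, 6 were higher and 1 lower, beside the same shares, with a median of 0.49. Of those higher, Tek, Tie1 and Eng are also on the endothelial list and Pdgfrb is also on the mural list. Their calls are thus counted both there and among the pathway genes called higher. The angiopoietin receptor Tek rose by 2.03 ± 0.31 (adjusted p = 0.00518), its partner Tie1 by 2.13 ± 0.32 (adjusted p = 0.00499) and the TGFβ co-receptor Eng by 2.02 ± 0.29 (adjusted p = 0.0043). Acvrl1, the receptor for BMP9, rose by 1.14 (adjusted p = 0.0404), the apelin receptor Aplnr by 1.75 (adjusted p = 0.0211) and Pdgfrb, the PDGF receptor of mural cells, by 0.84 (adjusted p = 0.0296). Angpt1, the activating ligand of Tek, fell by 0.95 ± 0.20 (adjusted p = 0.0173).

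**Figure D4:**
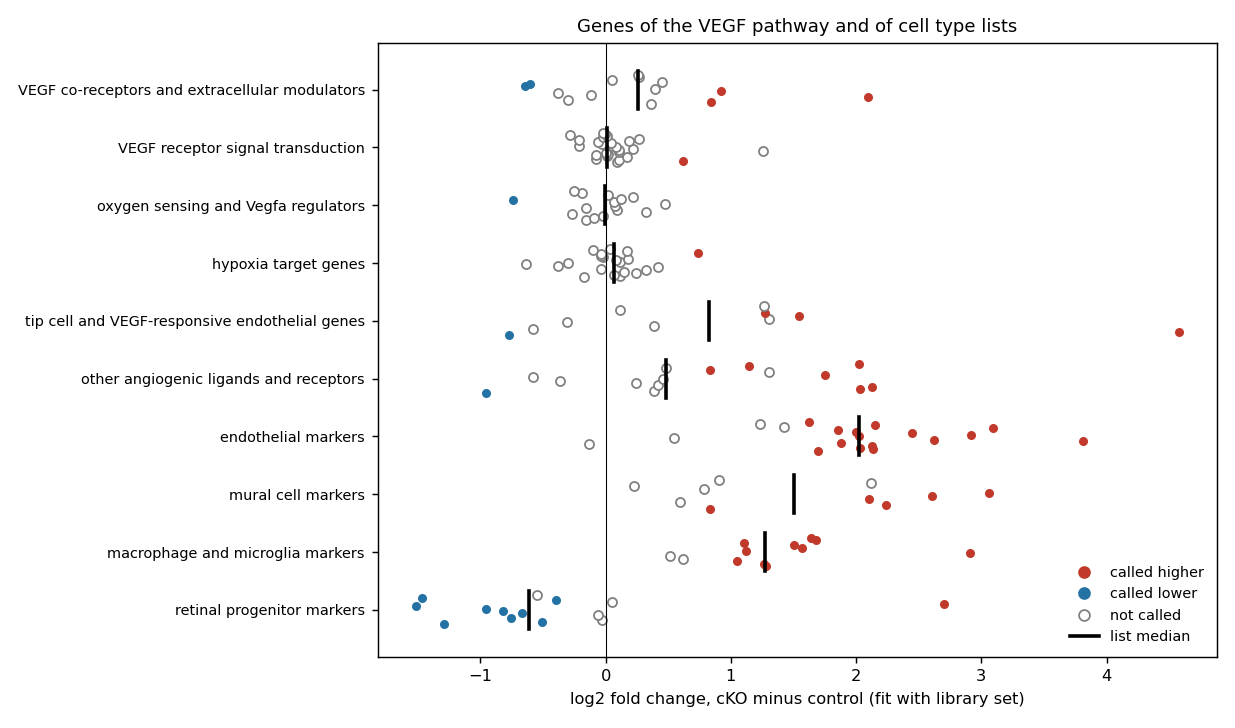
Log2 fold changes, cKO minus control, of the tested genes of each pathway and marker list, with red points for genes called higher and blue points for genes called lower in the edgeR fit, open points for genes not called and a bar for the median of the list. The endothelial list has its median at 2.02 and the progenitor list at -0.61, while the hypoxia target list has its median at 0.07.

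These pathway calls changed when single libraries were left out and when sex was added to the model. Those fits had 2 residual degrees of freedom, against 3 in the main fit, so a lost call alone does not show a changed difference. Leaving out each library in turn moved the log2 fold change of Ptprb between 1.96 and 2.19 and that of Tek between 1.85 and 2.19. That of Plvap moved between 0.63 and 2.02. Without cKO 3 the 6 lists held 2 genes called higher and 1 lower, and without control 2 they held 14 higher and 1 lower. Sema3a and Unc5b were called in the fits that left out each library in turn. Nrp2, Ptprb, Sema3f, Pfkfb3, Esm1, Tek, Tie1 and Eng lost their calls without cKO 3 alone, and Dll4 lost its call without control 2. Shb and Angpt1 were lost without control 2 or cKO 3, and Nr2e1 also without control 3. Plvap, Aplnr and Pdgfrb were lost without control 3, control 4 or cKO 3, Adamts1 also without control 2, and Acvrl1 without any library but cKO 1. With sex as a further term, of the genes named from these 6 lists Sema3f alone remained called (adjusted p = 0.0288 in edgeR's quasi-likelihood test). Without library set, 0 genes of the lists were called, while 36 genes were called over the whole table and 1292 had an unadjusted p under 0.05.

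The genes most like Kdr and Flt1 over the 6 libraries were named by the Pearson correlation of log2 CPM among 12117 genes with a mean of at least 2 CPM. For Kdr they included Melk (r = 0.996), Plekhb1 (0.996), Rnf168 (0.996) and Ptges3 (0.996). Melk had 34.6, 45.6 and 55.2 CPM in cKO 1, 2 and 3, against 64.2, 83.7 and 76.3 CPM in control 2, 3 and 4, the same order of cKO libraries as Kdr. For Flt1 they were Cntn3 (r = 0.994), Ube3c (0.992), Cntnap2 (0.990), Gpr85 (0.987) and Rgs6 (0.985). Cntn3 had 5.11, 5.25 and 11.2 CPM in the cKO libraries, against 3.89, 7.15 and 5.47 CPM in the controls, with cKO 3 highest and control 2 lowest as for Flt1. Kdr and Flt1 had a correlation of 0.147 with each other. Melk and Cntn3 were picked for this likeness, so the shared order of libraries follows from the choice. These correlations rest on 6 libraries that share the set structure described above.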

How the data were processed

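Each retina library was deposited as 1 table of read counts by gene, in whole numbers and without normalization. STAR, HTSeq, edgeR and the build GRCm38 are listed per the submitters' processing notes, and versions and the strand setting of the counting were not given in the sources used here. Per the labels' protocols, RNA came from a Qiagen RNeasy kit and libraries from an Illumina TruSeq RNA kit. The 5 rows that name no gene held 26.41 to 28.76% of all deposited counts and stayed out of library sizes and tests. Symbols and exon lengths came from GENCODE vM21 on GRCm38, which matched 37693 of 39179 identifiers (96.21%). No exon of another annotated gene overlapped an exon of the 7 genes.

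The tests ran in edgeR 4.0.16 (R 4.3.3), where filterByExpr kept 16691 genes, TMM scaled the libraries, and glmQLFit with glmQLFTest fitted library set and genotype (cKO minus control). p-values are 2-sided and Benjamini-Hochberg adjusted over all tested genes, with a threshold of 0.05. Sets were split at 2.9% of counts in the row of ambiguous reads, a measure of the files and not a batch that the labels name. Differences within a set are of log2 CPM with a prior count of 2. The series text gives separate mice per group and names the controls wild type, whereas genotype labels show floxed alleles. Pairs of libraries of 1 group differed by far more than counting noise, so none was counted as a repeat. Alternatives were no set term, sex as a further term, a replicate block, other scaling and filters, DESeq2 1.42.0, limma-voom (limma 3.58.1) and each library left out.

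The 7 genes, the lists and the set term were chosen with earlier results of these data known. Of each pathway list every called gene is named where 8 or fewer were called, and of each marker list up to 4 genes of smallest p. Cldn5, Egfl7, Nrp1, Hif1a, Vegfd, Pax6, Six3, Nes, Mki67 and the genes added to the plot of markers were named after their values were seen. Of the 5 genes most like Kdr, 1 is not reported here.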

Additional observations from a re-analysis of the deposited data

How the results depend on the processing

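Without library set as a term 36 genes were called higher and 0 lower, and 0 pathway genes in either direction. With sex as a further term 173 were higher and 63 lower, and 0 pathway genes higher and 1 lower. Genes called lower numbered 1592 with no filter on low counts and 1672 in DESeq2. Pathway genes called lower numbered 8 with RLE scaling, 12 with no filter and 11 in DESeq2. The interaction of genotype and set called 4 genes, 8 with no scaling and 171 with no filter. Leaving out each library in turn gave 176 to 1371 genes higher and 134 to 1336 lower. The lowest were 176 higher and 134 lower without cKO 3, with 552 and 168 without control 2 and 545 and 452 without control 3. The same fits gave 637 higher and 631 lower without control 4, 2 to 20 pathway genes higher and 1 to 7 lower, and 19 to 110 interaction calls. No interaction could be fitted without control 2 or cKO 3. Without each library in turn the change of Kdr minus that of Flt1 ran from -2.41 to -1.47. The change of Kdr alone ran from -0.84 to -0.60. Nothing is read from these ranges, since this contrast chose the genes and every cKO library was below every control library for Kdr. The cause of these shifts was not tested. Labels of both groups share the numbers 2 and 3 only, and deviations went with the library sets whatever the number (r = 0.77 between control 2 and cKO 2, 0.714 between control 2 and cKO 1). A fit with the replicate number as a block in place of set gave 1007 genes higher and 1033 lower, and -1.76 for Kdr minus Flt1. That fit had 1 residual degree of freedom. The numbers of cKO 1 and control 4 occur in 1 group only, so these libraries did not enter its genotype difference. Depth limits Flt4 and Esm1, with 12 to 28 and 1 to 2 reads per control library.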

Other observations

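Neuronal lists outside the pathway were read from the same fit of edgeR's quasi-likelihood test. Of 13 ganglion cell markers, the projection neurons of the retina, 11 were called higher and 0 lower, beside 6.36% of all tested genes called higher and 5.63% called lower. Their median log2 fold change was 0.56, with 2208 to 3242 summed CPM in cKO libraries, against 1460 to 1877 in control libraries. The transcription factor Ebf3 rose by 1.13 ± 0.10 (SE, adjusted p = 0.000382), the growth cone protein Gap43 by 0.98 ± 0.09 (adjusted p = 0.000464), and Pou4f1 and Pou4f3, transcription factors of ganglion cells, by 0.82 ± 0.10 (adjusted p = 0.00219) and 0.99 ± 0.13 (adjusted p = 0.00265). Without cKO 3 the count of ganglion cell markers called higher was 5, without control 3 it was 6, with sex as a further term 2 and without library set 0. Pou4f1 and Pou4f3 were among those lost with sex as a further term. Of 10 horizontal cell markers 2 were higher, Calb1 and Isl1 (0.56), and 1 lower, Ptf1a (-0.79), beside the same shares of all tested genes. The other 7 were not called, and the median log2 fold change of this list was -0.03. Isl1 is also one of the ganglion cell markers counted above. The calcium-binding protein Calb1 averaged 22.5 ± 1.41 CPM in cKO and 3.88 ± 0.31 CPM in control retinas (SD, n = 3 each) and rose by 2.54 ± 0.13 (adjusted p = 1.22e-05), and it was called in every alternative run, the fit without library set included. Of 9 photoreceptor precursor markers 1 was higher, the nuclear receptor Rxrg (0.69), and 2 lower, the transcription factors Prdm1 (-0.48) and Otx2 (-0.45). The same shares of all tested genes stand beside these counts, 6 markers were not called and the median was -0.15. None of 8 tested pigment epithelium markers was called, and of 4 tested blood markers the globins Hba-a1 (2.21) and Hbb-bt (3.17) were higher, beside the same shares. The calls of Isl1, Ptf1a, Rxrg, Prdm1, Otx2, Hba-a1 and Hbb-bt were lost with sex as a further term and without cKO 3, and in part without control 2, control 3, control 4 or cKO 2. The part of these cells in the values of the VEGF genes was not tested.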
